A study of Arabidopsis thaliana with 9 samples.

Results

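The comparison set cct-1 seedlings of Arabidopsis thaliana against wild type, using 3 cct-1 and 3 wild-type Col-0 arrays, 6 of the 9 arrays of the series, chosen by the genotype in their titles. The 3 cct-1 pools were 9 days old and carried the cct-1 mutation in the Col-0 background. The 3 gct-2 pools, also 9 days old and in Col-0, showed where cct-1 differed at equal age and entered the fit that sets the spread of each probe set, and the 3 wild-type pools were 7 days old. Each array was a biological replicate of 75 to 100 seedlings, of which only the above-ground parts were taken, at a length of 1 mm of the first leaf primordia. Seedlings of all 3 genotypes were grown on soil in 16 h of light at 23 °C after 3 days in the cold, and those without cotyledons or leaf primordia were left out. Genotype and age changed together, so an effect of cct-1 and an effect of 2 further days of growth cannot be told apart.

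CCT (CENTER CITY) encodes MED12 and GCT (GRAND CENTRAL) encodes MED13, which join cyclin C and the kinase CDK8 in the CDK8 module of Mediator. Mediator carries signals from DNA-bound transcription factors to RNA polymerase II, and its CDK8 module binds reversibly and often holds transcription back. In Arabidopsis, loss of either subunit is known to delay the patterning of the embryo and the change from juvenile to adult leaves and to flowering.

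The values were log2 expression per probe set, a group of short array oligonucleotides that reports on a transcript. All 16826 probe sets other than controls were tested, and 9222 genes could be named. A gene with several probe sets was read from its brightest. Array medians lay between 7.70 and 7.76. The 40th percentile of each array, 6.82 to 6.87, served as a floor: a level under it was not shown to be above background, and a fold that crosses it is given as a lower bound ("at least"), with the dimmer values raised to the floor. The annotation named no probe set for CCT or GCT, and the genotype labels were therefore not checked on the mutated genes. The cyclin C genes AT5G48640 (8.55 ± 0.18 in cct-1 and 8.37 ± 0.05 in wild type, SD, n = 3 each) and AT5G48630 (9.44 ± 0.25 in cct-1 and 9.26 ± 0.15 in wild type) both had a log2 difference of 0.19 and were not called. In bulk tissue, fewer cells of a type and less RNA per cell cannot be told apart. The difference between 3' and 5' ubiquitin control probe sets, a sign of RNA integrity, was 1.47 to 1.69 in cct-1 against 1.79 to 1.86 in wild type (exact permutation p = 0.1, two-sided, the smallest that 3 against 3 arrays allow); for actin (p = 0.8) and GAPDH (p = 0.3) the groups overlapped, and the part of RNA integrity in the results was not tested.

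Expression in cct-1 differed from wild type at 2276 probe sets, of which 1057 were higher and 1219 lower in cct-1 (limma, Benjamini-Hochberg adjusted p under 0.05). These calls made up 13.5% of the probe sets tested, 6.28% higher and 7.24% lower. Most differences were small, with a median log2 difference of 0.66 among the higher and -0.71 among the lower calls. At least a 2-fold difference was reached by 567 probe sets (3.37%), 221 of them higher (1.31%) and 346 lower (2.06%). Lower probe sets outnumbered higher ones in each size class: 29 were higher and 87 lower by 4-fold or more as measured, 10 and 20 by 8-fold or more, and 5 and 7 by 16-fold or more. Where all 6 values lay above the floor, these counts were 45 higher and 58 lower at 2-fold, 2 and 6 at 4-fold, and 0 and 1 at 8-fold. Calls fell to 1826 in a fit without the gct-2 arrays, to 1241 without wild-type replicate 2 and to 1454 without cct-1 replicate 2. Leaving out dim probe sets under the 60th percentile gave 1115 calls, among fewer probe sets tested. With those under the 40th percentile left out, 10409 were tested and 1573 called. Of the 1493 main calls kept by that filter, 1490 were called again.

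Calls were spread over the whole range of levels, while large differences were not. In 5 bins of equal size ordered by mean level, the share called was 12.4%, 14.2%, 12.5%, 13.2% and 15.3% from the dimmest to the brightest bin. The share called with at least a 2-fold difference was 4.25%, 7.22%, 3.15%, 1.6% and 0.624% in that order. The median size of a called log2 difference was 0.83 in the dimmest bin, 1.01 in the second and 0.39 in the brightest. Set against the floor, 1274 calls (56.0%) had both group means above it, 105 only the cct-1 mean, 141 only the wild-type mean, and 756 (33.2%) neither. No fold is given where neither group reached the floor. The spread of the replicates was close in both groups, with a median SD over probe sets of 0.15 in cct-1 and 0.14 in wild type.

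**Figure D1:**
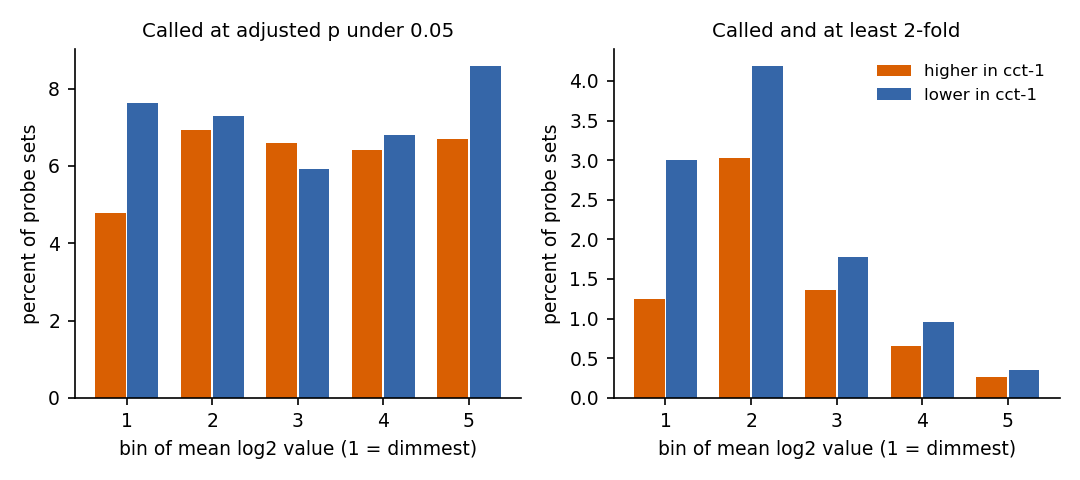
Percent of probe sets called higher (orange) or lower (blue) in cct-1 than in wild type, in 5 bins of equal size by mean log2 value over 9 arrays, with all calls on the left and calls of at least 2-fold on the right. The 2-fold share is highest in the second dimmest bin (7.22% in both directions together) and lowest in the brightest (0.624%).

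**Figure D2:**
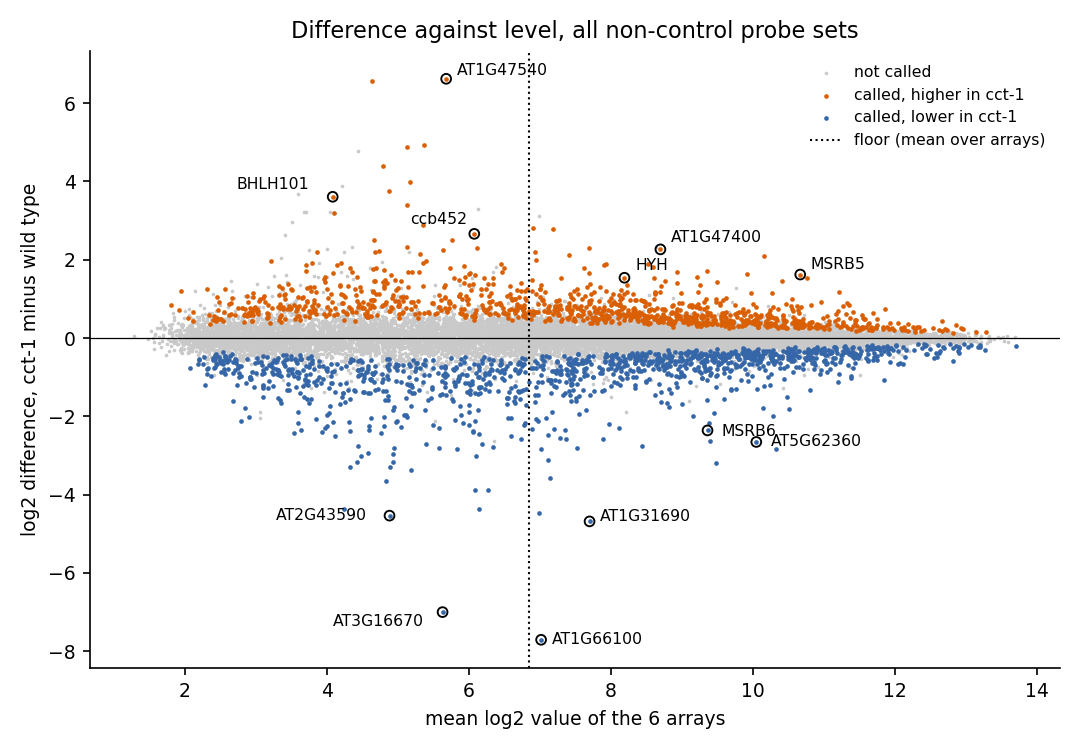
Log2 difference between cct-1 and wild type against the mean log2 value of the 6 arrays, 1 point per probe set, with calls in orange (higher) and blue (lower), named examples circled and the floor dotted. The differences beyond 4 log2 units lie at mean levels under 8, and in none of them were all 6 arrays above the floor.

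Among genes measured above the floor on all 6 arrays, 576 named genes were called with groups that did not overlap, 248 higher and 328 lower in cct-1. Over all probe sets, 13.4% were called with groups that did not overlap, and groups did not overlap at 31.8%, called or not. The iron-responsive peptide gene AT1G47400 led the higher genes. Its values were 10.58, 9.78 and 9.14 in cct-1, against 7.70, 7.24 and 7.75 in wild type. All cct-1 arrays were above all wild-type arrays, although the cct-1 arrays were themselves spread over more than 1 log2 unit. The log2 difference was 2.26 (SE 0.30, 4.8-fold, adjusted p = 0.000914).

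AT3G57020, of the strictosidine synthase-like family, was 3.71-fold higher (adjusted p = 0.000477). AT1G65370 was 3.54-fold and AT5G57785 3.1-fold higher (adjusted p = 0.000117 and 9.32e-05). AT1G62290, an aspartic protease of the vacuole, had 10.38, 10.13 and 10.09 in cct-1 against 8.70, 8.45 and 8.36 in wild type. Its replicates lay close together in each group and the groups were far apart (log2 difference 1.70, SE 0.13, adjusted p = 4.53e-05). HYH, a bZIP factor of light signalling and the close homologue of HY5, had 9.12, 8.83 and 8.93 in cct-1 against 7.71, 7.30 and 7.25 in wild type. That was a 2.91-fold difference (SE 0.20 on the log2 scale, adjusted p = 0.000794), and every cct-1 value exceeded every wild-type value. UGT78D2, a flavonoid 3-O-glucosyltransferase, was nearly level among the cct-1 arrays (9.43, 9.31 and 9.37) and more spread in wild type (7.78, 7.95 and 8.40), with a 2.51-fold difference (adjusted p = 0.000976). AT1G73600, a phosphobase methyltransferase of phosphocholine synthesis, AT1G17860, a Kunitz-type protease inhibitor, AT1G75280, of the isoflavone reductase-like family, and the flavin monooxygenase family gene AT5G61290 were 2.26, 2.26, 2.22 and 2.29-fold higher. AT1G73390, at 2.17-fold, was the smallest of these 15, and all 15 were called whichever array was left out.

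Lower genes with both levels above the floor were led by AT5G62360, of the invertase and pectin methylesterase inhibitor family. It had 9.01, 8.46 and 8.70 in cct-1, against 11.39, 11.61 and 11.13 in wild type. No cct-1 array came within 2 log2 units of a wild-type array, and the log2 difference was -2.65 (SE 0.15, 6.3-fold, adjusted p = 6.42e-06). MSRB6, a methionine sulfoxide reductase, which repairs oxidised methionine in proteins, had 8.63, 8.05 and 7.87 in cct-1 against 10.78, 10.51 and 10.34 in wild type (5.13-fold lower, adjusted p = 0.000117). MSRB5, the neighbouring gene on chromosome 4, went the other way. It had 11.33, 11.60 and 11.50 in cct-1 against 10.19, 9.67 and 9.71 in wild type, 3.08-fold higher (adjusted p = 5.86e-05).

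Of the other lower genes, AT1G67865 was 3.99-fold lower (adjusted p = 4.18e-06) and the glycine-rich protein genes AT2G05540 and AT1G04800 were 3.53 and 3.47-fold lower (adjusted p = 0.00116 and 0.00462). CML30, a calmodulin-like calcium sensor, had 7.91, 7.94 and 8.03 in cct-1 and 9.69, 9.53 and 9.66 in wild type. Both groups were tight and well apart, 3.18-fold lower in cct-1 (adjusted p = 3.08e-05). AT2G15960 (3.97-fold), AT1G64370 (3.2-fold), AT1G78460 (3.12-fold), AT2G42110 (2.96-fold) and the protein kinase gene AT3G59350 (2.85-fold) were lower as well. AT4G35730, AT2G28720, a histone H2B gene, and AT5G27280 were lower by 2.62, 2.54 and 2.5-fold. AT1G22690, known as the guard cell gene GC1, had 8.54, 7.44 and 8.45 in cct-1 against 9.55, 9.43 and 9.66 in wild type (2.63-fold lower, adjusted p = 0.0174). Its cct-1 replicate 2 lay furthest down, and the call was lost without that array (adjusted p = 0.0527) or without wild-type replicate 2 (adjusted p = 0.0533). The other 14 were called whichever array was left out.

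**Figure D3:**
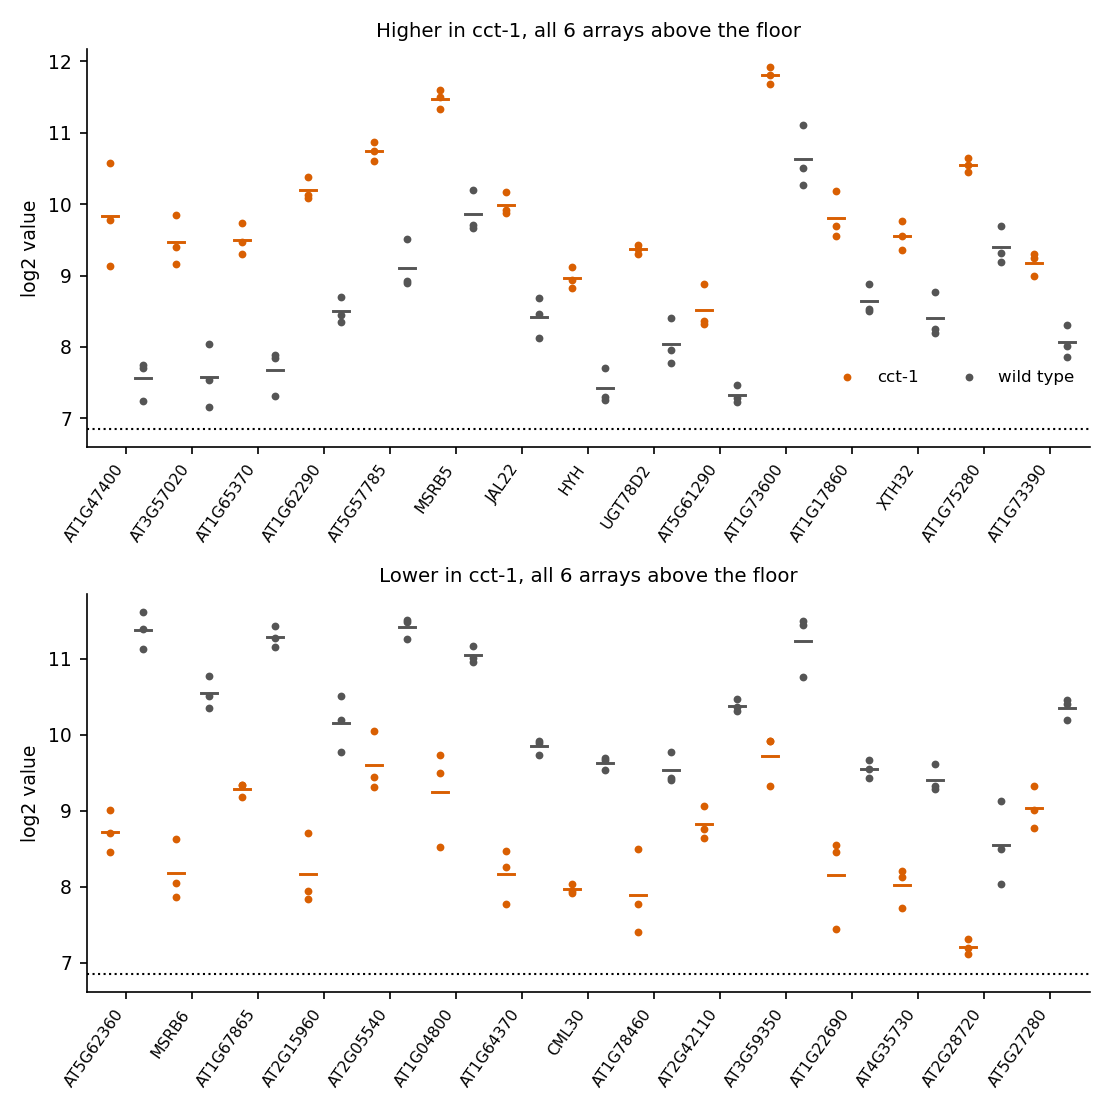
Log2 value on each array (points) and group mean (lines) of the 15 genes with the largest higher and the 15 with the largest lower difference among called genes with all 6 values above the floor (dotted), cct-1 in orange beside wild type in grey. The groups do not overlap in any of the 30 genes, which the choice of genes required.

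A second set of 138 called named genes lay above the floor in 1 group on all arrays while the other fell under it on at least 1 array, 50 higher and 88 lower in cct-1. AT1G66100, a thionin gene of defence, had 3.52, 3.29 and 2.69 in cct-1, against 11.10, 10.84 and 10.68 in wild type, at least 16.1-fold lower (adjusted p = 4e-06). AT1G31690, a copper amine oxidase gene, had 6.42, 4.82 and 4.83 in cct-1 against 10.09, 9.95 and 10.08 in wild type, at least 9.07-fold lower (adjusted p = 4.49e-05). In both genes wild type was bright and uniform, and every cct-1 array was under the floor. AT3G16670, of the pollen Ole e 1-like family, was at least 4.82-fold lower. AT1G19380 was at least 4.19-fold, the legume lectin-like gene AT3G16530 at least 4.18-fold and the second copper amine oxidase AT3G43670 at least 3.26-fold lower. The bounds of AT1G12080, EXPA16, the TIR-NBS gene AT3G04210 and the chitinase family gene AT2G43590 were 2.76, 2.55, 1.99 and 1.22-fold. All 10 calls held without any single array.

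In the opposite direction, AT1G47540, of the knottin family of small cysteine-rich proteins, had 10.64, 8.59 and 7.75 in cct-1 against 2.27, 2.13 and 2.70 in wild type, at least 4.44-fold higher (adjusted p = 0.000303). The 3 cct-1 arrays covered almost 3 log2 units, yet each was far above wild type. AT3G56290 (at least 3.1-fold), AT5G42760 (at least 2.27-fold), AT5G26280 (at least 2.23-fold) and AT3G20370 (at least 1.52-fold) were higher too. The endoglucanase GH9C2 was at least 2.5-fold higher (adjusted p = 0.00765). The peroxidase gene AT2G37130 had 9.26, 9.29 and 8.17 in cct-1 against 7.70, 6.83 and 8.12 in wild type. The nearest arrays of the groups almost touched, and its call (at least 2.56-fold, adjusted p = 0.0326) was lost without cct-1 replicate 1 or 2 or wild-type replicate 1 or 2 (adjusted p 0.0586 to 0.117) and in the fit without gct-2 arrays (adjusted p = 0.0556).

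Gene groups were read as counts of called members, beside the 12.7% of all named genes called, 5.36% higher and 7.34% lower, and a median log2 difference of 0.01 over all named genes. Coverage was limited to named probe sets, so most pathways were represented by few of their genes. Of the 37 lists, 25 were added after the values were seen, so their shares describe chosen groups and were not tested. Cell wall families differed in the direction of their calls. Of 12 expansins, which loosen the wall during growth, 4 were lower and none higher (median log2 difference -0.41), and 1 was higher without wild-type replicate 3. EXPA16 had 4.53, 3.77 and 4.72 in cct-1 against 8.38, 7.93 and 8.32 in wild type (adjusted p = 0.00016), with no overlap. EXLA2 had 5.68, 7.38 and 7.55 in cct-1 against 10.19, 9.04 and 7.98 in wild type, and its call (adjusted p = 0.0235) was lost without cct-1 replicate 1, wild-type replicate 1 or wild-type replicate 2 (adjusted p 0.0665 to 0.0744), with a robust variance (adjusted p = 0.0746) and without the gct-2 arrays (adjusted p = 0.0546). EXLB1 was under the floor in both groups (mean 3.35 in cct-1 and 6.52 in wild type, adjusted p = 3.08e-05), as was EXPB1 (5.38 in cct-1 and 6.52 in wild type, adjusted p = 0.0171, or 0.0502 without wild-type replicate 3).

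Of 5 xyloglucan endotransglucosylase/hydrolases, which cut and rejoin wall xyloglucan, 3 were lower and 1 higher. XTH32 had 9.55, 9.77 and 9.36 in cct-1 against 8.26, 8.20 and 8.77 in wild type, 2.22-fold higher (adjusted p = 0.00821). XTH33 averaged 3.11 in cct-1 and 6.03 in wild type (adjusted p = 0.000903), both under the floor. The calls of XTH16 (9.42 in cct-1 and 10.08 in wild type, adjusted p = 0.0219) and XTH18 were lost without wild-type replicate 1 or 2 or cct-1 replicate 1, which left 1 lower member in each case, and that of XTH18 without 5 further arrays. Of 7 endoglucanases of glycosyl hydrolase family 9, which act on cellulose, 4 were higher and 1 lower (median 0.57). GH9C2 and GH9A3 held without any single array, while higher members numbered 2 without cct-1 replicate 1, cct-1 replicate 2, gct-2 replicate 3 or wild-type replicate 1, and the lower member was lost without any of 5 arrays of cct-1 or wild type. GH9A3, GH9B8 and the lower member GH9B18 lay under the floor in both groups, and 3 of the 7 reached it in a group. With dim probe sets under the 40th percentile left out, 3 of the list were tested, 2 were higher and none was lower. The single named pectin methylesterase, PME61, averaged 4.83 in cct-1 and 7.01 in wild type (adjusted p = 7.83e-05). Of 17 trichome birefringence-like proteins, which acetylate wall polymers, 2 were lower and none higher (median -0.09), 1 of them without cct-1 replicate 1 or 3 or any wild-type array. Of 5 copper amine oxidases, which oxidise polyamines, the 2 described above were lower, and AT1G31710 would be higher without cct-1 replicate 3 or gct-2 replicate 1.

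Auxin-conjugating enzymes, which attach amino acids or glucose to auxins, were mostly higher. Of 6 such genes 4 were higher and 1 lower in cct-1 (median 1.17, with 2 members above the floor in a group), and 3 or 4 were higher whichever array was left out. IAGLU, an auxin glucosyltransferase, had 7.07, 6.88 and 7.01 in cct-1 against 5.66, 5.27 and 5.41 in wild type, at least 1.11-fold higher (adjusted p = 0.0011). UGT74D1, which also glucosylates auxins, had 7.72, 8.15 and 8.29 in cct-1 against 7.40, 6.94 and 7.43 in wild type. The groups did not overlap, and the call (log2 difference 0.80, adjusted p = 0.0206) was lost without cct-1 replicate 2 or 3 or wild-type replicate 2 (adjusted p 0.0643 to 0.0837). The amino acid conjugases WES1 (GH3.5) and GH3.17 averaged 6.85 and 6.56 in cct-1 and 5.01 each in wild type, with adjusted p of 0.00692 and 0.00389. GH3.3 was the lower member, at 5.50 in cct-1 and 6.44 in wild type (adjusted p = 0.0074). Both named type-A response regulators, which dampen cytokinin signalling, were lower. RR16 had 8.48, 8.88 and 8.98 in cct-1 against 9.42, 9.55 and 9.80 in wild type (log2 difference -0.81, adjusted p = 0.0236, lost without cct-1 replicate 1 or 2 or wild-type replicate 2 or 3), and ARR15 averaged 5.07 in cct-1 and 6.95 in wild type (adjusted p = 0.000391).

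Epidermal genes also differed. Of 6 named genes of stomata, the pores that guard cells form, 3 were lower in cct-1. Beside GC1 these were FMA (FAMA), the factor of guard cell differentiation, and CHX20, a guard cell cation exchanger. FMA had 6.92, 6.10 and 6.83 in cct-1 against 7.41, 7.91 and 7.72 in wild type, at least 1.74-fold lower (adjusted p = 0.0137), and the groups did not overlap. None of the 3 was called without wild-type replicate 2 (adjusted p 0.0533 to 0.0694), 1 was without cct-1 replicate 2, and 2 were without cct-1 replicate 3 or wild-type replicate 3. The call of CHX20 was also lost without the gct-2 arrays (adjusted p = 0.0541). The earlier stomatal factors SPCH (log2 difference 0.29) and MUTE (-0.51) and the peptide STOMAGEN (0.03) were not called. SIM, which starts the endoreduplication of trichomes, had 8.67, 8.51 and 8.66 in cct-1 against 9.43, 9.29 and 9.30 in wild type (log2 difference -0.73, adjusted p = 0.00112). TRY, an inhibitor of trichome initiation, averaged 6.10 in cct-1 and 5.33 in wild type, both under the floor (adjusted p = 0.0479), and its call was lost without any of 8 arrays.

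Called nuclear photosynthesis genes were mostly lower, by small amounts. Of 12 named nuclear genes for photosynthetic proteins 8 were lower and 1 higher (median -0.25), all above the floor. LHCB4.3, a minor light-harvesting protein, had 8.83, 8.16 and 8.62 in cct-1 against 9.40, 9.32 and 9.59 in wild type, 1.86-fold lower (adjusted p = 0.0133). NdhL, a subunit of the chloroplast NADH dehydrogenase-like complex, had 10.25, 10.18 and 10.02 in cct-1 against 10.70, 10.68 and 10.60 in wild type (log2 difference -0.51, adjusted p = 0.00301). NdhS and PIFI differed by -0.50 and -0.31 (adjusted p = 0.0097 and 0.0063). PGRL1B, of cyclic electron flow, was the higher member (log2 difference 0.44, adjusted p = 0.011). Lower members numbered 5 without wild-type replicate 1 or 2. With 1 variance prior for all levels, the calls of PSAE-1, PSAN, PSBW and LHCB4.2 were lost (adjusted p 0.09 to 0.109). Of 69 genes encoded in the plastid genome, 4 were lower and none higher (5.8% lower, under the 7.34% of all named genes, median -0.14). rbcL, the large subunit of Rubisco, had 11.25, 10.84 and 11.01 in cct-1 against 11.89, 11.88 and 11.62 in wild type (1.7-fold lower, adjusted p = 0.00496). The number of lower plastid genes was 1 without cct-1 replicate 2 or 3 or wild-type replicate 1 or 2, 2 without gct-2 replicate 2 or 3, and 7 without cct-1 replicate 1, so rbcL was the plastid gene whose call held without any single array.

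Genes of carbohydrate use moved in both directions. Of 12 starch and sugar transport genes 4 were higher and 3 lower. SFP1, a sugar transporter, had 8.70, 8.73 and 8.84 in cct-1 against 7.90, 7.78 and 7.71 in wild type, with tight groups 1.94-fold apart (adjusted p = 0.000268). ATSPS4F, a sucrose phosphate synthase, was 1.68-fold higher (adjusted p = 0.0157, lost without cct-1 replicate 1 or wild-type replicate 2). Without wild-type replicate 2 the higher members numbered 2. The vacuolar sugar carrier SWEET2 averaged 6.64 in cct-1 and 5.24 in wild type (adjusted p = 0.00121), both under the floor. DPE1, which acts on the sugars released from starch, had 10.78, 10.39 and 10.44 in cct-1 against 11.12, 11.09 and 11.02 in wild type (log2 difference -0.54, adjusted p = 0.00662). The plasma membrane sucrose carrier SWEET11 differed by -0.35 (adjusted p = 0.0102).

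Among nutrient genes, 2 of 3 named iron-deficiency genes were higher and none lower, whichever array was left out. Beside AT1G47400 this was BHLH101, a transcription factor induced by iron shortage, at 6.86, 5.48 and 5.30 in cct-1 against 2.70, 1.93 and 2.20 in wild type (adjusted p = 0.00166). A single cct-1 array reached the floor. PYE, a regulator of the same response, was not called (log2 difference 0.58, adjusted p = 0.22). All 6 named genes of sulfur assimilation and methionine metabolism were called, 3 higher and 3 lower. MMT, a methionine methyltransferase, had 8.45, 8.57 and 8.40 in cct-1 against 7.88, 7.80 and 7.91 in wild type (1.52-fold higher, adjusted p = 0.00369). HMT-1, a homocysteine methyltransferase, was at least 1.84-fold lower (adjusted p = 0.00224). The ATP sulfurylase APS3 was lower by 1.03 log2 units (adjusted p = 0.0262) and sulfite reductase SIR differed by -0.36 (adjusted p = 0.0401). The calls of APS3 and SIR, like that of APS4, were each lost without cct-1 replicate 2, wild-type replicate 1 or wild-type replicate 2, which left 1 lower member. That of SIR was also lost without cct-1 replicate 1 or gct-2 replicate 2, with quantile normalization and with 1 variance prior for all levels. APS3 further lost its call without cct-1 replicate 3 or without the gct-2 arrays, and APS4 without cct-1 replicate 1 or gct-2 replicate 3. OASA2, of cysteine synthesis, averaged 5.54 in cct-1 and 3.77 in wild type (adjusted p = 0.00112).

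PYK10 and 3 jacalin-related lectins were higher in cct-1. PYK10, the main β-glucosidase of the ER body, a compartment whose contents are released on wounding, is better known from roots and was the named gene of the root marker list. It had 12.28, 12.31 and 12.12 in cct-1 against 11.52, 11.33 and 11.61 in wild type (1.68-fold higher, adjusted p = 0.000303), so it was bright in every above-ground pool. Of 4 jacalin-related lectins, a family with members that bind PYK10, 3 were higher whichever array was left out (median 1.00). JAL22 had 9.93, 10.16 and 9.88 in cct-1 against 8.69, 8.12 and 8.46 in wild type (2.96-fold higher, adjusted p = 0.000268). JAL34 had 11.72, 11.85 and 11.47 in cct-1 against 10.89, 10.72 and 11.00 in wild type (1.75-fold higher, adjusted p = 0.00581). JAL33 was higher as well (adjusted p = 0.0074), at least 1.41-fold. Root tissue in the pools was not measured by any other named gene, and its part in these values was not tested.

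**Figure D4:**
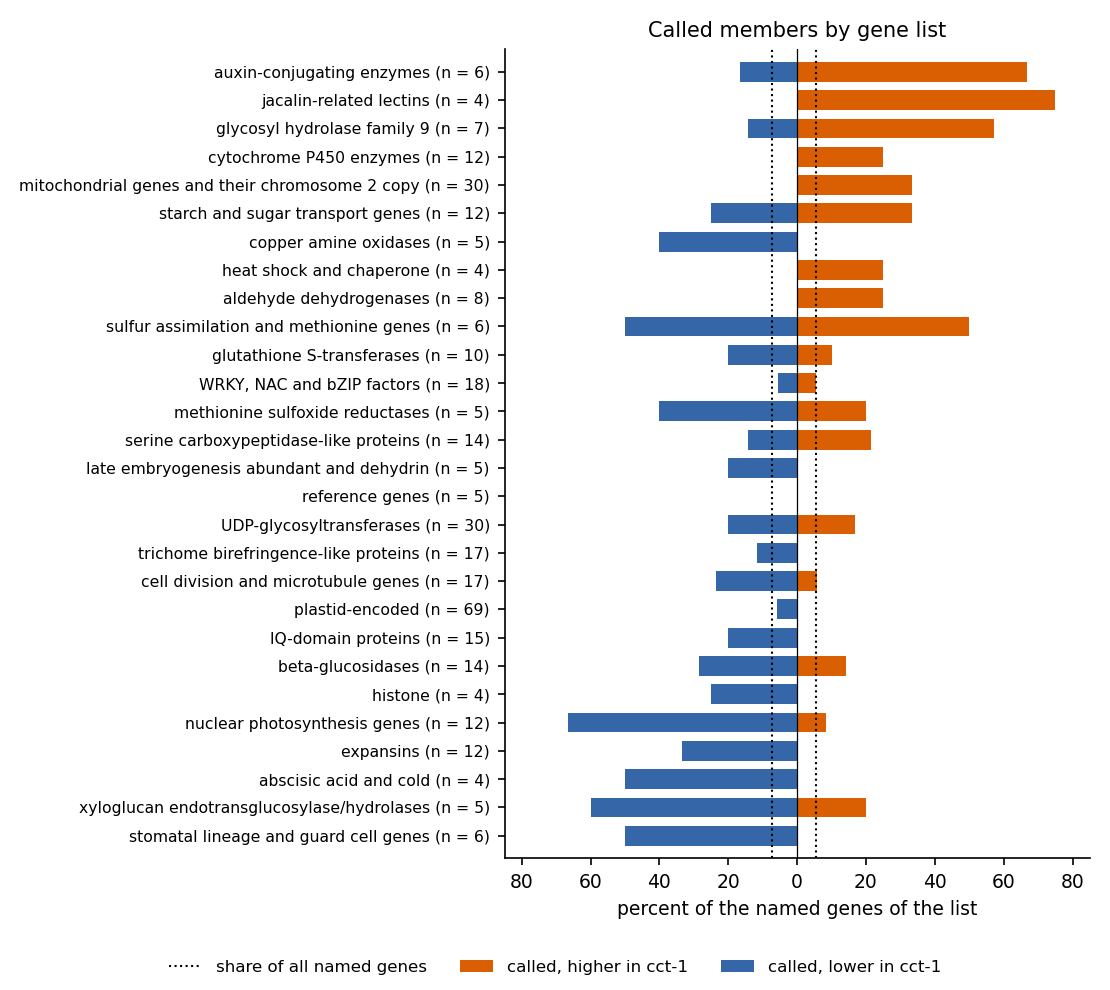
Percent of the named genes of each list called higher (orange, right) or lower (blue, left) in cct-1 than in wild type, for lists with 4 or more named genes, ordered by median difference, with the shares over all named genes dotted (5.36% higher and 7.34% lower). Photosynthesis and stomatal lists extend to the left (66.7% and 50.0% lower) and jacalin lectins and auxin-conjugating enzymes to the right (75.0% and 66.7% higher). These lists were among the 25 added after the values were seen, so their shares are a description only.

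Families of secondary metabolism and detoxification showed calls in both directions. Of 30 UDP-glycosyltransferases, which attach sugars to small molecules, 5 were higher and 6 lower (median -0.05), and these counts ranged from 2 to 5 and from 3 to 5 with an array left out, with fewer than 4 higher ones without any cct-1 array or wild-type replicate 2, and 3 lower ones without cct-1 replicate 1 or 2. UGT85A4 was lower (6.70 ± 0.57 in cct-1 and 8.15 ± 0.29 in wild type, SD, n = 3 each, at least 2.18-fold, adjusted p = 0.00556). Of 12 cytochrome P450 enzymes, all CYP71B genes apart from CYP84A4, 3 were higher and none lower. Among them was CYP71B6 (log2 difference 0.85, adjusted p = 0.000493), while CYP71B5 was close to the limit (adjusted p = 0.0498). Higher P450 genes numbered 2 without cct-1 replicate 1 or 2, gct-2 replicate 1 or 2 or wild-type replicate 2 or 3. Of 10 glutathione S-transferases 1 was higher and 2 lower, including GSTU27 (-0.59, adjusted p = 0.00916). Of 14 serine carboxypeptidase-like proteins 3 were higher and 2 lower, of 14 β-glucosidases 2 were higher and 4 lower, and of 8 aldehyde dehydrogenases 2 were higher, among them ALDH11A3 (0.38, adjusted p = 0.00153). Several of these counts fell with an array left out. A single aldehyde dehydrogenase was higher without any array other than cct-1 replicate 1. Higher carboxypeptidase-like genes numbered 1 without cct-1 replicate 1 or wild-type replicate 2 and 2 without any other array, and lower ones 1 without cct-1 replicate 1 or 2 or wild-type replicate 1 or 2. No glutathione S-transferase was higher without cct-1 replicate 1 or 2 or wild-type replicate 2. Lower β-glucosidases numbered 1 without wild-type replicate 2 and 3 to 5 without any other array. The calls of CYP71B6, GSTU27 and ALDH11A3 held without any single array. Of 5 methionine sulfoxide reductases 1 was higher and 2 lower, MSRB9 being lower beside MSRB6 (adjusted p = 0.0232, lost without cct-1 replicate 1 or 2).

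Cell division and cytoskeleton genes were lower more often than higher. Of 17 such genes 4 were lower and 1 higher (median -0.13), and 2 were lower without wild-type replicate 2. KICP-02, of the kinesin motors, had 8.79, 8.93 and 8.73 in cct-1 against 9.51, 9.87 and 9.59 in wild type (1.79-fold lower, adjusted p = 0.00243). The mitotic kinase AUR2 differed by -0.45 (adjusted p = 0.0131, or 0.0514 without wild-type replicate 2). The α-tubulin gene TUA1, known from pollen, was at least 1.61-fold higher (adjusted p = 0.0135, or 0.0547 without cct-1 replicate 2). Of 15 IQ-domain proteins, calmodulin-binding scaffolds found on microtubules, 3 were lower and none higher, and 1 was lower without cct-1 replicate 1 or wild-type replicate 2. Of 18 WRKY, NAC and bZIP factors, HYH was higher and bZIP44 lower (2.90 in cct-1 and 3.76 in wild type, both under the floor), shares of 5.56% each that lie near the background, and 3 were higher without wild-type replicate 1 and 2 lower without wild-type replicate 3. Of the 4 genes matched to the histone list by name, which did not take in the H2B gene AT2G28720 described above, 1, the linker histone HON4, was lower (log2 difference -0.29, adjusted p = 0.0158, lost without cct-1 replicate 2, without wild-type replicate 2 or with 1 variance prior for all levels).

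Phase change and stress genes were sparsely covered. SMZ, a repressor of flowering, had 8.29, 7.76 and 7.43 in cct-1 against 7.58, 6.96 and 6.12 in wild type. The groups overlapped and it was not called (log2 difference 0.94, SE 0.32, adjusted p = 0.0788), although it passed without wild-type replicate 1 (adjusted p = 0.0175) and with array weights (adjusted p = 0.0326). Its relative SNZ had nearly equal means, 7.45 in cct-1 and 7.53 in wild type. Of 4 cold and abscisic acid genes 2 were lower, COR27 (log2 difference -0.69, adjusted p = 0.00688) and COR47 (-0.41, adjusted p = 0.0109, or 0.0514 without wild-type replicate 2). COR15B was not called (-0.49, adjusted p = 0.0535). It was called lower in several other fits, among them the 40th percentile filter (adjusted p = 0.0463) and those without cct-1 replicate 2 (0.0274) or 3 (0.0344). Of 5 late embryogenesis abundant or dehydrin genes 1 was lower and none higher (2 lower without wild-type replicate 3, 1 higher without cct-1 replicate 3), and of 4 chaperone genes 1 was higher, Cpn60beta3 (0.63, adjusted p = 0.0255, lost without cct-1 replicate 1 or 2 or wild-type replicate 2 or 3, and without the gct-2 arrays). None of 3 genes matched to flavonoid or anthocyanin synthesis was called, a list that did not hold the flavonoid glucosyltransferase UGT78D2, called higher above, and none of 5 genes in common use as expression references was (median log2 difference -0.03). In each of these lists 1 gene was higher in some fits. For the flavonoid genes this was CHIL, among others without gct-2 replicate 3 or wild-type replicate 1, under the 60th percentile filter and with a robust variance. For the references it was GAPC2, without cct-1 replicate 3 or with array weights.

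Called transcripts of mitochondrial type were higher in cct-1, while most of the list was not called. It held 30 named genes of the mitochondrial genome or of its copy on chromosome 2, whose transcripts the shared probe sets cannot tell apart. Of these 10 were higher and none lower (33.3% higher, median 0.18), although 8 of the 30 reached the floor in a group. With dim probe sets under the 40th percentile left out, 8 of the list were tested and 2 were higher. The called genes other than ccb452 and AT2G07718 lay under the floor in both groups, so these calls compare dim signals. ccb452, a gene of cytochrome c biogenesis, had 7.14, 7.57 and 7.50 in cct-1, against 4.49, 5.02 and 4.73 in wild type. AT2G07718, in the chromosome 2 copy, had 8.59, 7.84 and 7.42 in cct-1 against 5.89, 6.01 and 5.94 in wild type. Every cct-1 array was above the floor for both and every wild-type array under it, at least 1.48-fold (adjusted p = 4.53e-05) and 2.16-fold (adjusted p = 0.000729). AT2G07741 averaged 5.78 in cct-1 and 3.57 in wild type (adjusted p = 0.000102) and cox2, of cytochrome c oxidase, 3.61 in cct-1 and 2.59 in wild type (adjusted p = 0.00339), all under the floor. The number higher was 7 without wild-type replicate 2 and 8 to 11 without any other single array, and 1 gene was lower without wild-type replicate 3.

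At equal age, cct-1 differed from gct-2 at 937 probe sets (5.57%), 468 higher (2.78%) and 469 lower (2.79%) in cct-1, and at 360 (15.8%) of those called against wild type. Without gct-2 replicate 3 the count was 274, without gct-2 replicate 2 it was 387, without cct-1 replicate 2 it was 420 and without cct-1 replicate 1 it was 563. Both mutants are set against the same wild-type arrays, so their differences from wild type are not independent and are given side by side. Of the 576 genes above, 110 (19.1%) differed from gct-2, beside 5.28% of all named genes. Since the 576 were chosen by their values on the cct-1 arrays that enter this test as well, nothing is read from the difference in share. HYH had 9.12, 8.83 and 8.93 in cct-1, 7.71, 7.18 and 6.93 in gct-2, and 7.71, 7.30 and 7.25 in wild type. The cct-1 arrays stood alone, 1.69 log2 units above gct-2 (SE 0.20, adjusted p = 0.00202). UGT78D2 was 0.91 above gct-2 (SE 0.18, adjusted p = 0.0175), whose arrays had 8.64, 8.64 and 8.11.

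Other genes set cct-1 apart from gct-2 of the same age. AT5G42760 had 8.25, 8.05 and 7.77 in cct-1 and 6.46, 6.42 and 5.99 in gct-2 (adjusted p = 0.00211 for the difference). AT3G56290 had 8.69, 8.06 and 8.67 in cct-1 and 7.14, 6.91 and 6.63 in gct-2 (adjusted p = 0.00206). ccb452 had 4.77, 4.17 and 4.47 in gct-2, far below the cct-1 values given above (adjusted p = 7.64e-05). Of the 30 mitochondrial-type genes 11 differed between the mutants, and none was called between gct-2 and wild type, where the median was -0.18. LHCB4.2, a light-harvesting protein, had 12.61, 12.52 and 12.58 in cct-1, 13.10, 13.09 and 13.10 in gct-2, and 12.88, 12.81 and 12.70 in wild type. It was lower in cct-1 than in either group: by 0.52 against gct-2 (adjusted p = 0.000473) and by 0.23 against wild type (adjusted p = 0.012, or 0.101 with 1 variance prior for all levels). AT5G27280 had 9.32, 9.01 and 8.77 in cct-1, against 9.84, 10.02 and 10.10 in gct-2 and 10.40, 10.19 and 10.45 in wild type, 0.96 log2 units lower than gct-2 (adjusted p = 0.00412). The clock gene GI had 3.21, 3.64 and 2.36 in cct-1, 7.28, 6.77 and 6.19 in gct-2 and 6.04, 4.73 and 4.21 in wild type, so that wild type lay between the mutants (adjusted p = 0.00259 between them). Its call against wild type, where both levels were under the floor (adjusted p = 0.0212), was lost without cct-1 replicate 1 or 3 or wild-type replicate 1 or 2.

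**Figure D5:**
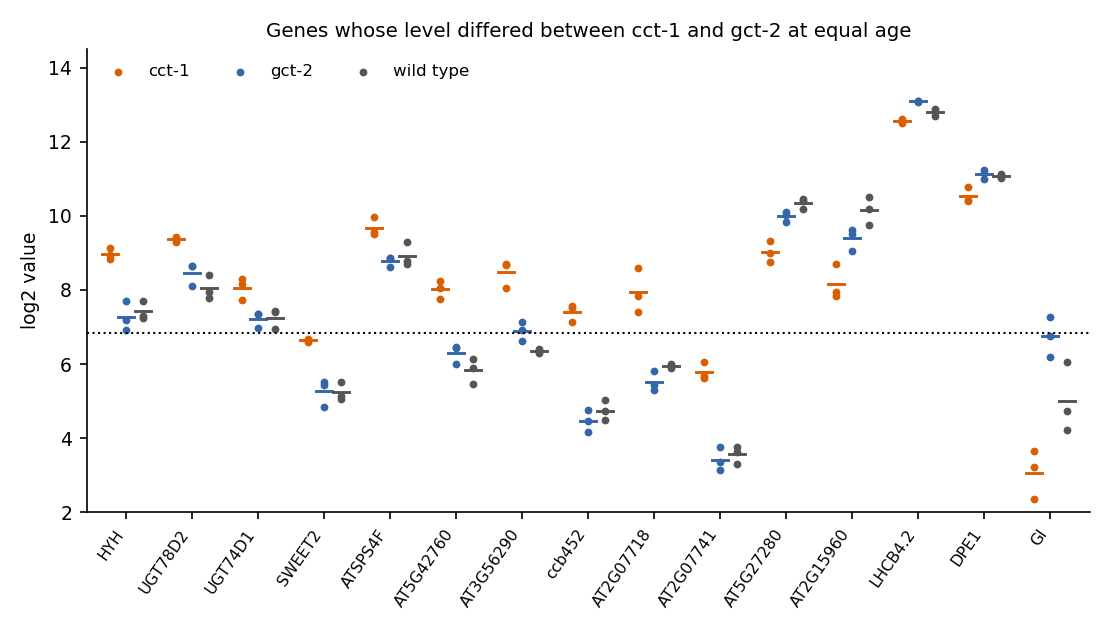
Log2 value on each array (points) and group mean (lines) in cct-1 (orange, 9 days), gct-2 (blue, 9 days) and wild type (grey, 7 days) for 15 genes called between cct-1 and wild type and between cct-1 and gct-2, chosen after their values were seen, with the floor dotted. HYH, ccb452 and AT2G07741 stand above both other groups in cct-1, and GI and DPE1 stand below both.

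Most of the genes above the floor with the largest differences from wild type were not called between the mutants. AT1G47400 differed from wild type by 2.26 in cct-1 and 2.38 in gct-2, and MSRB5 by 1.62 in cct-1 and 1.61 in gct-2. For PYK10 the difference between cct-1 and gct-2 was 0.06 (SE 0.08, adjusted p = 0.705). Of the 30 genes plotted with all 6 values above the floor, 6 differed between the mutants: HYH, UGT78D2, AT5G62360, AT2G15960, AT1G78460 and AT5G27280. Of the 20 genes named with a group under the floor, 5 of the 10 higher and 4 of the 10 lower differed. Over all named genes, 5.28% differed between the mutants. The genes counted here were chosen by their values on the same cct-1 arrays, so nothing is read from the difference in share.

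Among genes with all 6 values above the floor, replicates of cct-1 spread most for AT1G47400, described above, for COR15A, a cold-regulated gene, with 10.52, 11.31 and 9.37, for BCAT4, of methionine-derived glucosinolate synthesis, with 10.63, 11.27 and 9.79, and for AT1G16850, with 7.37, 9.85 and 7.37. The copper amine oxidase AT1G31710 had 9.41, 9.65 and 8.19, and AT1G47400 alone of these 5 was called. In wild type the largest spreads among the same genes were those of AT2G32150 (11.06, 9.95 and 8.01), AT3G19680, EXO (10.91, 9.93 and 8.60), AT1G23030 and AT5G19120, of which none was called. EXO, a gene of growth under brassinosteroids, had 8.20, 8.73 and 8.84 in cct-1, a log2 difference of -1.22 that did not pass the test (adjusted p = 0.156). Without wild-type replicate 3, EXO (log2 difference -1.83, adjusted p = 0.025) and AT2G32150 (-1.05, adjusted p = 0.0441) were called lower in cct-1.

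Neighbouring genes that were both called are given as a description. Of 3390 pairs of named genes with no other protein-coding gene between them in RefSeq TAIR10.1, 62 had both members called. Of these 25 were both lower, 14 both higher and 23 in opposite directions. Among all named genes 12.7% were called, and whether the number of pairs departs from that share was not tested, so nothing is read from it. Sugar transporters SFP1 and SFP2 (log2 differences 0.96 and 0.71 as measured) and lectins JAL33 and JAL34 (1.19 and 0.81 as measured) were neighbours that were both higher, and MSRB5 and MSRB6 (1.62 and -2.36) had the largest opposite pair. The higher call of SFP2 did not hold once wild-type replicate 2 was left out (adjusted p = 0.0597). Probe sets with no single gene name were called at a share of 14.7% (1100 of 7491), beside 12.6% (1176 of 9335) of those with 1 name.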

How the data were processed

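Above-ground parts of cct-1 (3 arrays), gct-2 (3) and wild-type (3) seedlings were measured on Affymetrix expression arrays. The deposited table gave 1 value per probe set and array on a log2 scale, read as such from its values, and was used as deposited. GCRMA and MAS5 are named, with no role or version, per the submitters' processing notes, and the sources used here do not give how background was corrected, arrays were normalized or the 16863 probe sets were picked. Only RNA integrity used the 37 control probe sets.

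All 9 arrays entered a linear model with a mean for each genotype in limma 3.58.1 (lmFit, contrasts.fit and eBayes with an intensity trend) in R 4.3.3. P-values were Benjamini-Hochberg adjusted over 16826 probe sets and called under 0.05. The fit was tried on simulated, independent normal values with known differences, which does not measure the rate of false calls in these data. Platform annotation gave 1 gene for 9335 probe sets, several for 351 and none for 7140, and 9291 of the 9335 were updated through RefSeq TAIR10.1.

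Genes named were the 15 each way with the largest difference among called, non-overlapping genes with all 6 values above the floor, the 10 each way with 1 group under it, up to 4 called members per list (with values only for others), the 5 per group with the largest spread among genes above the floor, and SMZ, SNZ and CDK8-module genes. Genes of neighbouring pairs and of the equal-age plot were picked after their values were seen. Of the 37 lists, 12 came from a first set of 39, and 25 gene families were added after the values were seen, since text patterns had found few or wrong genes. In the first set 7 lists had no named probe set, and its remaining lists were left out although they held named genes. The members and lists were chosen with earlier results of these data known. No list was tested as a set. Labels name separate biological replicates but no batch. Alternatives are given in the closing section.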

Additional observations from a re-analysis of the deposited data

Results flagged for a closer look

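The results below were singled out because the cct-1 and gct-2 effects on a gene, each taken against the same wild-type arrays, differed when the difference itself was tested (limma contrast of cct-1 against gct-2, adjusted p under 0.05). The value given is the cct-1 effect minus the gct-2 effect in log2 units. Among genes higher in cct-1 than in wild type, it was positive for most: HYH 1.69, UGT78D2 0.91, UGT74D1 0.83, IAGLU 1.08, SWEET2 1.37, ATSPS4F 0.90, GH9A3 0.89, TRY 1.05, AT5G42760 1.73 and AT3G56290 1.58. The genes of mitochondrial type all lay on that side: ccb452 2.94, AT2G07718 2.43, AT2G07741 2.37, AT2G07719 1.12, AT2G07777 1.07, AT2G07705 1.06, AT2G07722 0.96, AT2G07673 0.69 and cox2 0.67. OASA2 at -1.45 was the exception, being further above wild type in gct-2 than in cct-1.

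Genes lower in cct-1 than in wild type mostly had negative values. These were AT1G66100 -1.79, AT3G16530 -1.30, AT2G15960 -1.23, AT3G04210 -1.18, AT3G43670 -1.11, AT5G27280 -0.96, AT1G78460 -0.89, AT5G62360 -0.66, DPE1 -0.59, LHCB4.2 -0.52 and COR47 -0.38. For GI (-3.67) and UGT72E1 (-1.54) gct-2 lay above wild type and cct-1 below it, with levels under the floor in cct-1 and wild type. EXLB1 (1.30), SIR (0.40) and scpl35 (0.45) were lower in gct-2 than in cct-1. Values of genes under the floor in either mutant describe measured signals whose size is uncertain. Since the genes were named for their cct-1 values, a larger effect in cct-1 was favoured by the choice.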

How the results depend on the processing

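The median standard error of a difference was 0.14, and the number of arrays limits precision. Calls numbered 1115 of the probe sets above the 60th percentile on at least 3 arrays, 1350 above the 40th percentile with 1 variance prior for all levels (a combination chosen after seeing the data), 920 at an adjusted p under 0.01, and 1241 to 2314 with an array left out. At least 2-fold calls numbered 112 under the 60th and 259 under the 40th percentile filter, 245 with that filter and 1 variance prior, and 470 to 628 with an array left out. The filters test fewer, brighter probe sets: of 1493 calls that the 40th percentile filter kept, 1490 were called in its own 1573. Calls between cct-1 and gct-2 numbered 564 under the 60th percentile filter, 1500 with array weights and 274 to 959 with an array left out. The cause of the other shifts was not tested. Quantile normalization, median centring, a robust variance, fits without gct-2, and leaving out probe sets shared between genes kept the count of calls within 1.5 times. No named gene reversed its direction while called, and of 153 called genes described, 49 lost their call without wild-type replicate 2, 35 without cct-1 replicate 2 and 7 to 32 without another array. Same-numbered cct-1 and wild-type arrays did not deviate together (correlations of -0.11 to -0.05, with 0 of 6 arrays closest to their own number), and the replicate number as a block gave 1857 calls, with SMZ among the genes gained (adjusted p = 0.0247) and 18 of the 153 called genes lost.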
